A study of Mus musculus with 23 samples.

Results

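The olfactory bulb and the cortex of Cdr1as knockout mice were compared directly, across the mature microRNAs (miRNAs) counted in 3 small RNA libraries of knockout olfactory bulb and 3 of knockout cortex. These 6 libraries were taken by their labels from a series of 23. The series holds wild type and Cdr1as knockout C57BL/6 mice and 4 dissected brain regions: olfactory bulb, cortex, hippocampus and cerebellum. Both groups compared here carry the knockout and differ in the dissected region. The knockout was taken in place of the wild type because its cortex libraries were already known to hold little of the miRNAs of the olfactory bulb. Per the labels' protocols, RNA came from TRIZOL extraction and libraries from the TruSeq Small RNA kit. The labels read here name no age and no sex for the mice. Nothing in the labels ties the libraries of a group to separate mice, so the p-values measure only how these samples spread, which may be technical, and a bulb and a cortex library may share a mouse. Cdr1as itself, a circular RNA, gives no value in these tables, so the knockout could not be checked here.

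A miRNA guides Argonaute proteins to messenger RNAs that pair with its seed, and miRNAs with the same seed can share targets. Each precursor hairpin gives a 5p and a 3p arm, and neighbouring miRNA genes are often made from 1 primary transcript. The olfactory bulb receives the axons of olfactory sensory neurons and takes in newborn interneurons throughout life, whereas the cortex is dominated by glutamatergic projection neurons. The miR-200 family is known from epithelia, where it represses the transcription factors Zeb1 and Zeb2, and from olfactory neurogenesis. The miR-183 cluster, made of miR-183, miR-96 and miR-182, is known from sensory cells such as hair cells and photoreceptors.

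The sequences below belong to the abundant arms of the miR-183 cluster and miR-200 family, and they are shown because these arms fall into a few seed groups. They are RefSeq sequences (GRCm38.p6), written 5′ to 3′ with the seed, bases 2 to 8, in capitals.
miR-200a-3p: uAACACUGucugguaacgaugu
miR-141-3p: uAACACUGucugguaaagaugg
miR-200b-3p: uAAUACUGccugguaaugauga
miR-200c-3p: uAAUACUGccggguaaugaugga
miR-429-3p: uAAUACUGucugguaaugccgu
miR-183-5p: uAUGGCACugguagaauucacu
miR-96-5p: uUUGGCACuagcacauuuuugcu
miR-182-5p: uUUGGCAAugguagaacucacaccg
Counted from 1 at the 5′ end, miR-200a-3p and miR-141-3p differ by C17A and U22G and share a seed. Between miR-200b-3p and miR-200c-3p the differences are U11G and A22G, also outside the seed. The change C4U separates the seed of miR-200a-3p from that of miR-200b-3p. The seeds of miR-182-5p and miR-96-5p differ by A8C, and the arms differ at 11 of 23 compared bases. Members as alike as miR-200a-3p and miR-141-3p, or miR-200b-3p and miR-200c-3p, can exchange reads in mapping, which makes their separate values less certain.

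A further set is shown because miRNAs with 1 seed lay on opposite sides of the comparison. The seed GGCAGUG belongs to the miR-34 and miR-449 miRNAs, and the seed ACACACC to miR-329-3p and miR-362-3p.
miR-34a-5p: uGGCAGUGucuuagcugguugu
miR-34b-5p: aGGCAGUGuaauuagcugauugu
miR-449a-5p: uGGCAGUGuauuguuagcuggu
miR-449c-5p: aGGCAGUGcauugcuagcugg
miR-329-3p: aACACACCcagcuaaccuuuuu
miR-362-3p: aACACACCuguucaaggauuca

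The bulb libraries held 7466573, 8515335 and 2530737 counts in replicates 1, 2 and 3, and the cortex libraries 4431438, 5120297 and 2328929. Replicate 3 was the shallowest in both regions, and a library held 741 to 957 detected miRNAs. Levels are given as CPM, counts relative to a library size scaled by TMM, a method that centres most miRNAs on no difference. The first principal component of log2 CPM held 88.7% of the variance and separated the regions, at 17.9 to 18.8 in bulb and -19.9 to -16.6 in cortex. In bulk tissue, fewer cells of a type and less RNA per cell cannot be told apart.

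Of 541 miRNAs tested by edgeR's quasi-likelihood test, 81 were higher and 78 were lower in knockout bulb than in knockout cortex, which is 15% and 14.4% of those tested and 29.4% together. A call needed an adjusted p (Benjamini-Hochberg) under 0.05 and at least a 2-fold difference. Without the fold requirement 272 (50.3%) passed. The 3 bulb libraries lay fully above or below the 3 cortex libraries for 309 miRNAs (57.1%), among them 153 of the 159 called. The differences were not symmetric in size: 13 miRNAs were at least 32-fold higher in bulb, against 0 at least 32-fold lower, and all 13 belong to the miR-200 family or the miR-183 cluster. At 4-fold or more, 21 were higher and 18 lower. Both groups were under 10 CPM on average for 42 of the called miRNAs. For 18 miRNAs only the bulb libraries passed the filter on low counts, and all 18 were called higher. For 68 miRNAs only the cortex libraries passed it, and 27 of these were called lower. Passing in only the bulb or only the cortex by itself favours a difference. The shares of 15% and 14.4%, with which the lists below are compared, include these calls.

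The scaling sets where no difference lies. With library size alone in place of TMM, the median log2 fold change of all tested miRNAs moved from 0.03 to -0.88, and 23 miRNAs were called higher and 241 lower, so that 8.71% of the calls were higher in place of 50.9%. No called miRNA changed sign, and 101 of the 159 calls were shared. A change of scaling moves all miRNAs by nearly the same amount, here less than the 2-fold mark, so a call could hardly change sign. For the same reason the median of each list described below, relative to the median of all tested miRNAs, moved by at most 0.044. Directions of moderate size are therefore relative to the bulk of the miRNAs.

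**Figure D1:**
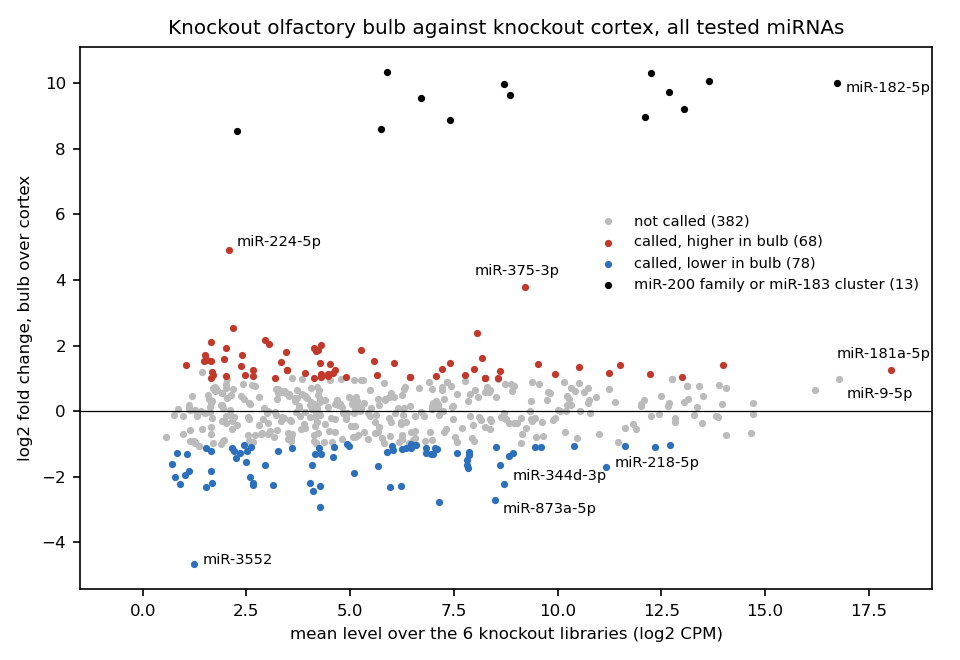
Each point is 1 of the 541 tested miRNAs, with its mean level over the 6 knockout libraries (log2 CPM) on the horizontal axis and its log2 fold change of bulb over cortex on the vertical axis. The 13 black points of the miR-200 family and miR-183 cluster lie above 8, apart from the 68 other miRNAs called higher (red) and the 78 called lower (blue), while 382 miRNAs (grey) were not called.

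The miR-183 cluster lies on chromosome 6 (GRCm38) and gave the highest levels. Its most abundant member, miR-182-5p, stood at 301015, 194713 and 159512 CPM in the bulb libraries and at 96.3, 302 and 239 CPM in the cortex libraries. It made up 18.7%, 14.8% and 11.9% of all bulb counts, and the groups are far apart. The log2 fold change was 10.01 (SE 0.55, adjusted p = 3.78e-07, edgeR with Benjamini-Hochberg adjustment). For miR-183-5p the bulb libraries had 32841, 23578 and 20230 CPM and the cortex libraries 9.03, 34.3 and 27.7, a log2 fold change of 10.08 (SE 0.55). For miR-96-5p the bulb libraries had 1083, 874 and 552 CPM, and the cortex libraries 0, 1.54 and 0.652. The 3 arms thus spanned more than 100-fold in level in the bulb, with log2 fold changes of 9.97 to 10.08. Their opposite arms were rare: miR-183-3p had 2946 counts over the bulb libraries and 4 over the cortex libraries, and miR-182-3p had 128 and 0. Against a floor of 3 counts over the group, miR-182-3p was at least 51.6-fold higher in bulb. The untested arm miR-96-3p had 52 and 0 counts, which is at least 21.0-fold higher.

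The miR-200 family is encoded at 2 places, miR-200a, miR-200b and miR-429 on chromosome 4 and miR-200c with miR-141 on chromosome 6 (GRCm38). From the chromosome 4 genes, miR-429-3p stood at 19949, 17377 and 13763 CPM in bulb and 14.8, 41.2 and 30.0 in cortex, a log2 fold change of 9.21 (SE 0.43). Levels of miR-200a-3p were 14214, 14016 and 11312 CPM in bulb against 7.59, 23.8 and 14.7 in cortex (log2 fold change 9.73). Levels of miR-200b-3p were 10736, 9447 and 6438 CPM against 11.6, 25.8 and 15.3 (8.96). From the chromosome 6 genes, miR-141-3p had 13105, 9686 and 6489 CPM in bulb and 1.81, 14.0 and 5.86 in cortex, with a log2 fold change of 10.33 (SE 0.68, adjusted p = 1.98e-06, edgeR with Benjamini-Hochberg adjustment). Its neighbour miR-200c-3p, which shares the seed of miR-200b-3p and miR-429-3p, was lower in level at 1011, 1049 and 691 CPM against 0.361, 1.82 and 0.977 (9.64). No bulb library overlapped a cortex library for any of these members.

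The passenger-type arms of the family were also far higher in bulb. The lowest adjusted p of the whole comparison, 2.33e-08 by edgeR with Benjamini-Hochberg adjustment, belonged to miR-200a-5p, at 361, 357 and 296 CPM in bulb and 0.723, 0.840 and 0.326 in cortex (log2 fold change 8.88, SE 0.29). For miR-200b-5p the counts summed to 1487 in bulb and 4 in cortex. For miR-141-5p they summed to 1594 and 1, a ratio of 1928 with a 95% counting interval of 346 to 76214. The rare miR-200c-5p, which was not tested, had 16 and 0 counts, at least 6.45-fold higher, and miR-429-5p had 0 counts in these 6 libraries. Reads were copied by PCR and carried no molecular identifiers, so intervals and floors cover counting error only.

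Of the 10 names of the miR-200 family 8 passed the filter on low counts, and of the 6 of the miR-183 cluster 5. All 13 were called higher, where 15% of all miRNAs were. For 7 of the 13 (miR-96-5p, miR-182-3p, miR-183-3p, miR-141-5p, miR-200a-5p, miR-200b-5p and miR-200c-3p) only the bulb libraries passed the filter, which by itself favours a difference, and nothing is read from the count. Both lists together took 24.5%, 20.7% and 16.4% of all counts in bulb replicates 1 to 3, and 0.0178%, 0.0623% and 0.0441% in the cortex replicates. Within the cortex the members moved together between libraries. Of the 9 arms with at least 10 cortex counts, 9 were highest in replicate 2 and 8 were lowest in replicate 1. In the bulb, replicate 3 was lowest for 9 of 9. Without cortex replicate 1 the median of the miR-183 cluster was 9.17, and without cortex replicate 2 it was 10.47, beside 9.97 with all libraries.

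The traces left in knockout cortex were compared with the other knockout regions, as a description without a test. Mean cortex levels of the 9 arms were 0.0740% to 0.198% of the mean bulb levels. For miR-182-5p the hippocampus libraries held 165 and 103 CPM, within the cortex range, and the cerebellum libraries held 507, 1069 and 950, all above the cortex. For miR-429-3p the hippocampus held 21.0 and 34.1 CPM, again within the cortex range, and the cerebellum 1.02, 2.30 and 1.45, all below it. This split followed the genes: the cerebellum lay above the cortex for 3 arms (miR-182-5p, miR-183-5p and miR-96-5p) and below it for 5 (miR-200a-3p, miR-200b-3p, miR-200c-3p, miR-429-3p and miR-141-3p). The hippocampus overlapped the cortex range for 7 of the 9. The exceptions were miR-141-3p, at 1.32 and 1.38 CPM in hippocampus, and miR-200c-3p, at 0.180 and 0.162, both below every cortex library.

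**Figure D2:**
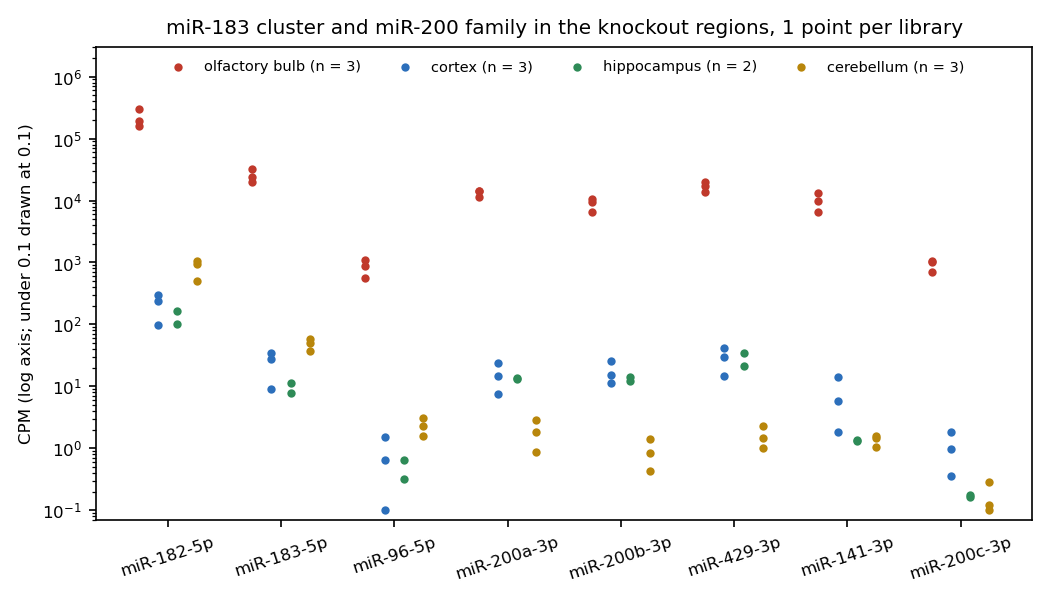
Each point is 1 knockout library, with CPM on a log axis for 8 arms of the miR-183 cluster (left) and the miR-200 family (right) in olfactory bulb, cortex, hippocampus and cerebellum. The bulb lies far above the other regions for all 8 arms; the cerebellum lies above the cortex for miR-182-5p, miR-183-5p and miR-96-5p, and below it for the 5 arms of the miR-200 family.

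Outside these lists, the next in size was miR-224-5p, a rare miRNA with 10.8, 7.85 and 5.81 CPM in bulb and 0.181, 0.280 and 0.326 in cortex (112 against 4 counts, log2 fold change 4.92). With so few cortex counts only the bulb libraries could pass the filter on low counts, which by itself favours a difference. After miR-224-5p came miR-375-3p, known from pancreatic islets and neuroendocrine cells. Its bulb libraries had 836, 683 and 1798 CPM and its cortex libraries 69.6, 64.3 and 109, so that bulb replicate 3 was more than 2 times the others. The log2 fold change was 3.77 (SE 0.39, adjusted p = 7.39e-05, edgeR with Benjamini-Hochberg adjustment). These 2 miRNAs and 13 arms above are the 15 highest among called miRNAs whose groups do not overlap.

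Other miRNAs higher in bulb, chosen after their values were seen, lie within genes for neurotransmitter receptors. In an intron of Chrm2, which encodes a muscarinic acetylcholine receptor, lies miR-490. Its 3p arm had 419, 416 and 498 CPM in bulb against 93.4, 83.3 and 80.1 in cortex (log2 fold change 2.37, SE 0.17, adjusted p = 3.83e-06, edgeR with Benjamini-Hochberg adjustment), and its 5p arm was also called, at 1.94. Grm8, which encodes a metabotropic glutamate receptor, hosts miR-592, and miR-592-5p stood at 431, 413 and 471 CPM against 148, 142 and 141 (1.61). Spread between replicates was small for both, and no library overlapped.

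The most abundant miRNA of all 6 libraries, miR-181a-5p, took 25.2% to 28.3% of bulb counts and at most 21.7% of cortex counts. On the TMM scale it stood at 405829, 340791 and 378134 CPM in bulb and 167562, 143342 and 164338 in cortex, a log2 fold change of 1.24 (SE 0.15). Its seed relatives were close: 1.41 for miR-181b-5p, 1.04 for miR-181c-5p and 0.88 for miR-181d-5p, the last under 2-fold. The calls of miR-181a-5p and miR-181b-5p did not hold with library size alone. Among the other most abundant miRNAs, miR-9-5p and miR-26a-5p passed the adjusted p but not the 2-fold mark, at 0.98 and 0.65, and miR-22-3p and miR-434-3p likewise, at -0.68 and -0.72. For miR-128-3p the value was -0.10 with overlapping groups, and let-7f-5p overlapped too, at 0.26.

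**Figure D3:**
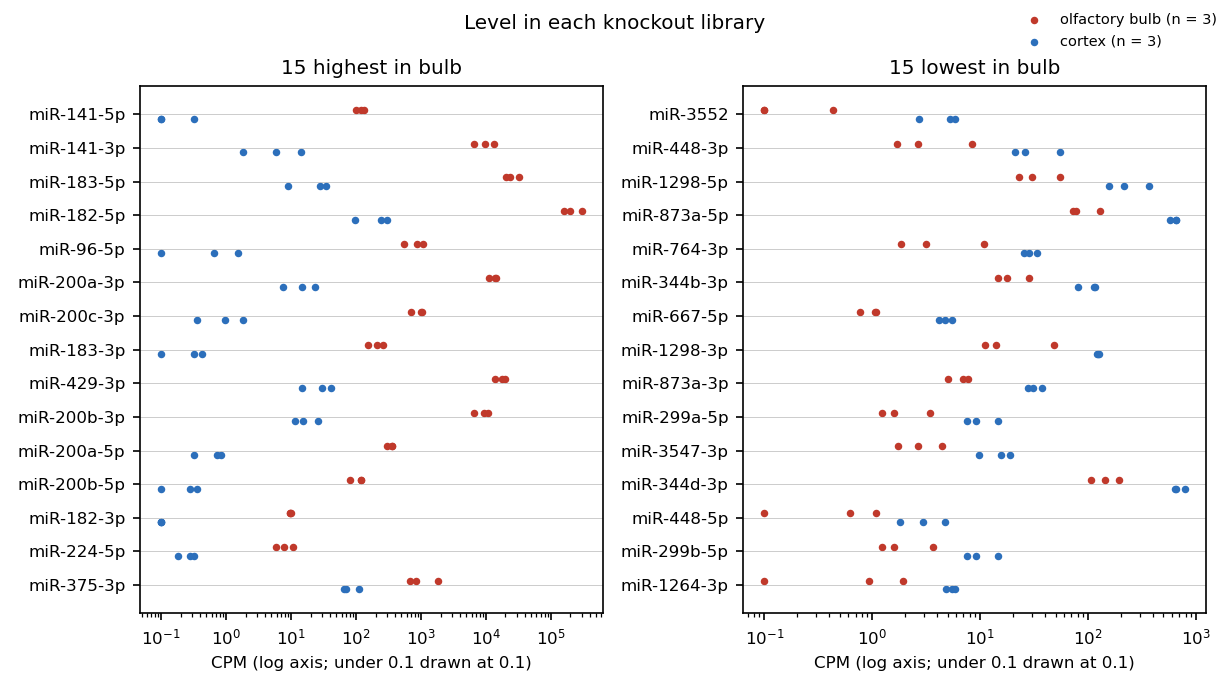
Each point is 1 library, with CPM on a log axis, for the 15 miRNAs highest (left) and lowest (right) in bulb among called miRNAs whose groups do not overlap. On the left, bulb (red) and cortex (blue) of the miR-200 family and miR-183 cluster are separated by several orders of magnitude, while on the right most miRNAs are separated by less than 10-fold.

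On the other side, 7 of 7 tested arms assigned by position to introns of Htr2c were lower in bulb, where 14.4% of all miRNAs were. For 5 of the 7 only the cortex libraries passed the filter on low counts, which by itself favours a difference. The arm miR-1264-3p, also on chromosome X, was given no host gene here and is not counted among the 7. Htr2c, on chromosome X, encodes the serotonin receptor 2C and is highly expressed in the choroid plexus. Levels of miR-1298-5p were 55.3, 23.1 and 30.1 CPM in bulb against 218, 157 and 368 in cortex (-2.76, SE 0.39). Levels of miR-448-3p were 8.42, 1.69 and 2.64 CPM against 25.8, 21.1 and 55.4 (-2.94), and those of miR-764-3p 10.8, 1.85 and 3.17 against 25.7, 28.3 and 33.9 (-2.43). Bulb replicate 1 was the highest bulb library for each of these 3. The rare miR-3552 had 2 counts in bulb and 73 in cortex, a ratio of 0.0331 with a 95% counting interval of 0.00394 to 0.124. The call of miR-448-5p (-2.21) was lost without cortex replicate 2 and without bulb replicate 2.

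Outside the 7 arms assigned to Htr2c, miR-873a-5p had the lowest value among called miRNAs whose groups do not overlap. Its gene lies within Lingo2, which encodes a neuronal transmembrane protein. The bulb libraries had 130, 77.9 and 72.9 CPM and the cortex libraries 649, 570 and 646, a log2 fold change of -2.73 (SE 0.24, adjusted p = 2.45e-05, edgeR with Benjamini-Hochberg adjustment). The other arm, miR-873a-3p, stood at -2.30. From the rodent miR-344 family, miR-344d-3p had 195, 107 and 143 CPM in bulb and 649, 639 and 796 in cortex (-2.23, SE 0.24), and miR-344b-3p had 28.3, 17.9 and 14.8 against 116, 114 and 81.4 (-2.33). The family was not uniform. Of its 6 tested arms, 3 were lower (50%, against 14.4% of all miRNAs). For 1 of these 3, miR-344d-3-5p, only the cortex libraries passed the filter on low counts, which by itself favours a difference. Another arm, miR-344f-3p at 1.38, was higher (1 of 6, 16.7%, against 15%), and the abundant miR-344-3p was at 0.82, under 2-fold. The 15 lowest also held miR-3547-3p (-2.24), miR-1264-3p (-2.21), miR-667-5p (-2.32), and miR-299a-5p and miR-299b-5p (-2.26 and -2.21), whose similar sequences may share reads. For miR-1264-3p, miR-667-5p, miR-299a-5p and miR-299b-5p only the cortex libraries passed the filter on low counts, which by itself favours a difference.

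The imprinted Dlk1-Dio3 cluster on chromosome 12, expressed from the maternal chromosome and abundant in neurons, was lower in bulb as a group of small differences. Of 83 tested arms, 27 were called lower (32.5%, against 14.4% of all miRNAs) and 0 higher, and 57 passed the adjusted p alone. For 17 of the 83 tested arms, among them 6 of the 27, only the cortex libraries passed the filter on low counts, which by itself favours a difference. With these 17 included, the median was -0.91 and 81 of 83 values were below 0. Its most abundant called arms were miR-411-5p, with 4383, 3573 and 5347 CPM in bulb against 8415, 7967 and 10640 in cortex (-1.02), and miR-410-3p, with 3711, 2789 and 3465 against 6847, 6518 and 7833 (-1.09). Both lie near the 2-fold mark and lost the call without bulb replicate 2, and miR-411-5p lost it also without cortex replicate 3. By contrast miR-381-3p stood at -0.16. With library size alone 75 arms were lower. The summed level of the list was 40165 to 45010 CPM in bulb and 69840 to 72841 in cortex.

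**Figure D4:**
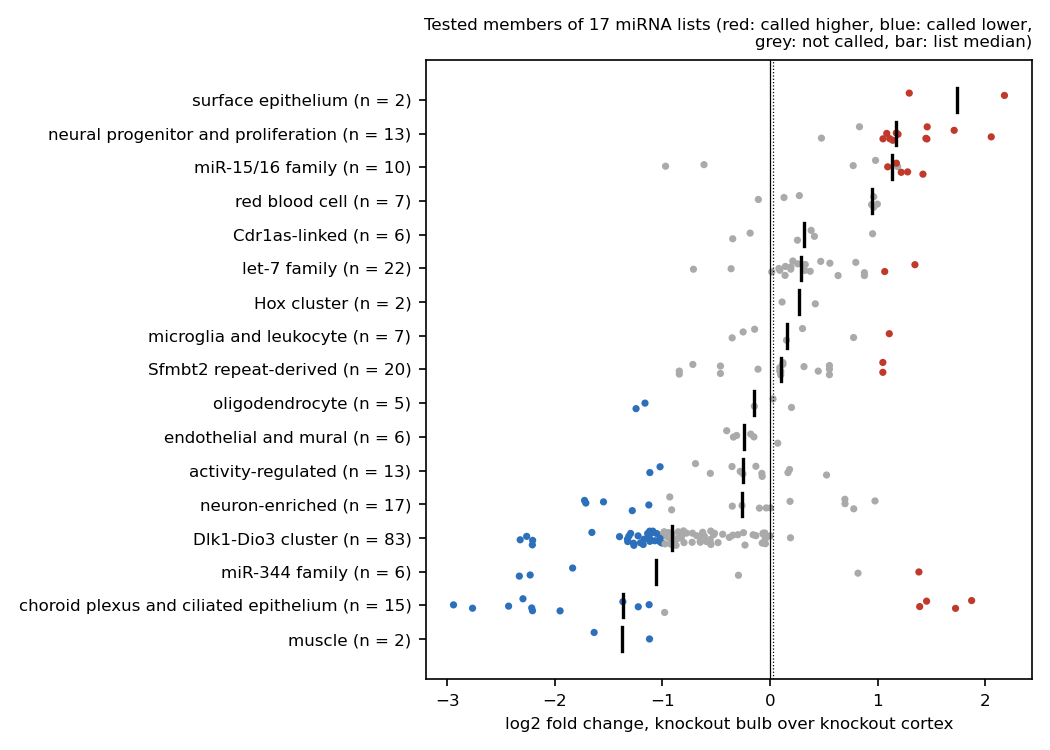
Each point is 1 tested miRNA of a list, with its log2 fold change of knockout bulb over knockout cortex on the horizontal axis, and the black bar is the list's median. Members called higher are red, members called lower are blue and the others grey; the solid line is 0 and the dotted line the median of all tested miRNAs. The progenitor list lies right of 0 for 13 of 13 members and the Dlk1-Dio3 cluster left of 0 for 81 of 83. For 17 of these 83 only the cortex libraries passed the filter on low counts, which by itself favours a difference.

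MiRNAs known from proliferating and progenitor cells, from the miR-17-92 and miR-106b-25 clusters, lay on the bulb side. Of 13 tested arms, 11 were called higher (84.6%, against 15% of all miRNAs) and 0 lower, with a median of 1.17, and the 2 not called were miR-93-5p (0.83) and miR-92a-1-5p (0.48). The most abundant, miR-92a-3p, had 3721, 2829 and 3569 CPM in bulb and 1407, 1380 and 1698 in cortex (1.17, SE 0.17). For miR-25-3p, from within the replication gene Mcm7, the levels were 1269, 947 and 1031 against 385, 344 and 462 (1.45). The highest value belonged to miR-19a-3p (2.06). The number called was 7 without bulb replicate 2 and 1 with library size alone, where the median was 0.27. The miR-15/16 family, known to restrain the cell cycle, had 5 of 10 tested arms higher (50%, against 15%) and 0 lower, including miR-195a-5p (1.28) and miR-497a-5p (1.22). With library size alone 0 of its arms were higher and 2 lower.

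Neuron-enriched miRNAs did not move as a block. Of 17 tested, 5 were lower (29.4%, against 14.4% of all miRNAs) and 0 higher, and the median was -0.26. Levels of miR-218-5p, whose genes lie in introns of the axon guidance genes Slit2 and Slit3, were 1259, 969 and 1017 CPM in bulb and 3856, 3034 and 3738 in cortex (-1.71, SE 0.18). Both of its 3p arms were also lower, at -1.55 and -1.13. For these 2 only the cortex libraries passed the filter on low counts, which by itself favours a difference. Levels of miR-137-3p, known from neuronal maturation and synapses, were 101, 113 and 105 CPM against 353, 410 and 290 (-1.72). The remaining call was miR-129-2-3p (-1.28). On the other side of 0, the neuronal identity miRNAs miR-124-3p (0.70) and miR-9-5p (0.98) passed the adjusted p under the 2-fold mark. The number called lower was 8 without bulb replicate 3 and 10 with library size alone. Among 13 activity-regulated miRNAs 2 were lower, miR-134-3p (-1.12) and miR-485-5p (-1.02). That is 15.4%, near the 14.4% of all miRNAs and so no result about the list, and the number was 1 after leaving out any 1 of 4 libraries (bulb replicates 2 and 3, cortex replicates 2 and 3). The activity-induced miR-132-3p stood at 0.17 with overlapping groups.

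The miRNAs linked to Cdr1as, which both groups lack, were not called. Levels of miR-7a-5p, for which Cdr1as has many binding sites, were 44.1, 53.3 and 75.6 CPM in bulb and 40.1, 52.9 and 37.8 in cortex, so the groups overlapped. Its log2 fold change was 0.38 (SE 0.25, adjusted p = 0.228, edgeR with Benjamini-Hochberg adjustment). For miR-7b-5p, which differs from miR-7a-5p by A10U, the value was -0.18, and its 3p arm had too few reads to test (10 and 20 counts). The arms miR-7a-1-3p and miR-7a-2-3p stood at 0.95 and 0.41, and the first passed the adjusted p under the 2-fold mark. For miR-671-5p, which pairs extensively with Cdr1as and directs its cleavage, the levels were 14.5, 17.4 and 16.9 CPM against 19.0, 23.8 and 18.9 (-0.35, adjusted p = 0.207 by edgeR with Benjamini-Hochberg adjustment), and miR-671-3p stood at 0.25. The median of the 6 tested arms was 0.32 and turned to -0.58 with library size alone, where 2 were called lower. Without bulb replicate 3, 1 arm was called higher.

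Markers of other cell types that the dissected tissue could hold were called in some lists and not in others. Of all miRNAs tested, 15% were called higher and 14.4% lower. Of 7 miRNAs of red blood cells 0 were called. Their median was 0.94, 6 of 7 values were above 0, and 4 passed the adjusted p alone on the bulb side. The defining miR-451a, at -0.11, was the 1 value below 0. The red blood cell list summed to 14504 to 20803 CPM in bulb and 8481 to 11186 in cortex. This sum holds both miR-486a-5p and miR-486b-5p, whose equal counts may be the same reads entered 2 times, so it may overstate the level. The pair miR-486a-5p and miR-486b-5p had equal counts in 23 of 23 libraries and was at 0.96, and 2 to 4 arms of the list were called higher without bulb replicate 2, bulb replicate 3, cortex replicate 1 or cortex replicate 3. Of 6 endothelial and mural miRNAs 0 were called, and miR-126a-3p stood at -0.31 (adjusted p = 0.104 by edgeR with Benjamini-Hochberg adjustment). That list summed to 14205 to 21917 CPM in bulb and 18623 to 22943 in cortex. Among 7 microglia and leukocyte miRNAs miR-155-5p (1.11) was higher (14.3%, near the 15% of all miRNAs), a call lost without cortex replicate 1. For miR-155-5p only the bulb libraries passed the filter on low counts, which by itself favours a difference. The microglia and leukocyte list summed to 1181 to 1560 CPM in bulb and 1398 to 1710 in cortex. Of 5 oligodendrocyte arms 2 were lower (40%), among them miR-219a-2-3p at 162, 112 and 144 CPM against 329, 321 and 339 (-1.24). The other call, miR-219a-5p (-1.16), had overlapping groups and was lost without any 1 of 5 libraries. The more abundant miR-338-3p stood at 0.03, and the list summed to 1106 to 1605 CPM in bulb and 1316 to 1691 in cortex. Both tested muscle arms were lower (100%), miR-133a-3p (-1.12) and miR-133b-3p (-1.63), while 8 of the 18 muscle names had 0 counts in these libraries. The muscle list summed to 54.5 to 74.9 CPM in bulb and 119 to 157 in cortex. Both tested arms known from surface epithelium were higher (100%). Levels were 10.8, 16.2 and 10.6 CPM against 2.53, 2.80 and 3.26 for miR-205-5p (2.18). For miR-203-3p they were 253, 225 and 150 against 112, 75.5 and 68.7 (1.29), and its call did not hold with library size alone. The part of these cells in the region differences was not tested.

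The list of choroid plexus and ciliated epithelium split in 2 directions, with 4 of 15 arms higher (26.7%, against 15% of all miRNAs) and 10 lower (66.7%, against 14.4%). For 6 of the 10 only the cortex libraries passed the filter on low counts, and for miR-449c-5p only the bulb libraries did. Besides the Htr2c arms, the lower ones included miR-34c-5p, at 247, 268 and 240 CPM in bulb and 561, 478 and 913 in cortex (-1.37). The higher ones were miR-204-5p, from an intron of Trpm3, at 4508, 4116 and 4020 CPM against 1544, 1285 and 1993 (1.39), its seed relative miR-211-5p from Trpm1 (1.87), and miR-449a-5p and miR-449c-5p from Cdc20b. With library size alone the 4 were not called. The defining miRNAs of these cells thus lay on both sides. The list summed to 4378 to 4981 CPM in bulb and 2161 to 3572 in cortex, and its part in the region difference was not tested.

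The let-7 family, which promotes differentiation, had 2 of 22 tested arms called higher (9.09%, under the 15% of all miRNAs), let-7b-5p at 1798, 2193 and 2362 CPM against 738, 867 and 893 (1.35) and let-7b-3p (1.07). The median was 0.29 and turned to -0.61 with library size alone. The count was 4 without cortex replicate 2 and 1 without bulb replicate 3. Near-identical let-7 members can exchange reads. From the Hox clusters, miR-10a-5p and miR-10b-5p stood at 0.42 and 0.11 and were not called. From the repeat-derived miRNAs of the Sfmbt2 gene, 2 of 20 were called higher (10%, under the 15% of all miRNAs), miR-669a-3p and miR-669o-3p, which had equal counts in all 23 libraries, and the pair overlapped between regions and lost the call without any 1 of 4 libraries.

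Calls of neighbouring genes were compared by precursor. By GRCm38 position, 30 groups of precursors within 10000 bases of each other were formed from miRNAs with a matched sequence and a single locus. Of these groups, 15 held at least 1 call. In 13 groups the calls came from at least 2 precursors, and in each of these 13 they had 1 direction. In the groups of let-7b and of miR-34b they came from 1 precursor. Some of the calls are of arms that passed the filter on low counts in 1 region alone, which favours 1 direction. In the group of miR-3552 and miR-764 this was so for all 3 arms, and nothing is read from the number of groups. Sharing a host gene did not always go with a shared direction: of the miRNAs within Mir670hg, miR-129-2-3p was lower (-1.28) and miR-670-3p higher (1.49). Of 50 seeds shared by tested miRNAs with a matched sequence (464 of 541), 26 held a call and 2 held calls in both directions. For the seed GGCAGUG, miR-34a-5p was lower at 29.6, 22.3 and 19.5 CPM in bulb against 85.6, 65.1 and 82.1 in cortex (-1.69), and miR-34b-5p was lower too (-1.12). With the same seed, miR-449a-5p was higher at 33.5, 21.9 and 30.1 CPM against 10.7, 9.38 and 11.1 (1.45), and so was miR-449c-5p (1.72). For the seed ACACACC, miR-329-3p of the Dlk1-Dio3 cluster was lower at 16.2, 14.0 and 8.45 CPM against 36.5, 36.1 and 32.6 (-1.40). Its partner miR-362-3p, from an intron of Clcn5, was higher at 34.6, 33.6 and 16.4 CPM against 7.59, 11.1 and 4.56 (1.84). Within each pair of opposite miRNAs no bulb library overlapped a cortex library.

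The 5p and 3p arms of each precursor were compared as a ratio. Of 154 precursors with both arms tested, 2 (1.3%) differed in the log2 ratio of 5p to 3p counts by limma at an adjusted p under 0.05 and 2-fold, 27 had an unadjusted p under 0.05, and 143 differed by less than 1. Both arms were called in the same direction for 24 precursors, in opposite directions for 0, and only 1 arm was called for 34. Some of these arms, such as miR-182-3p and miR-764-3p, passed the filter on low counts in 1 region alone, which favours 1 direction. For miR-362 the log2 ratio was -3.04, -3.10 and -2.81 in bulb and -1.12, -1.82 and -0.95 in cortex, a difference of -1.68 (SE 0.29, adjusted p = 0.0345 by limma). The 3p arm was called higher while miR-362-5p stood at 0.26. This call was lost with a pseudocount of 5 and without any 1 of the libraries other than cortex replicate 2. The other call, miR-182 (3.50), rests on miR-182-3p at 0 counts in every cortex library, so its cortex ratio is set by the pseudocount of 0.5, and it too was lost without any 1 of the libraries other than cortex replicate 2.

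The same region difference was taken in wild type mice, between 3 bulb and 3 cortex libraries that the knockout comparison does not use. The wild type calls came from 1 fit of 12 libraries, which also held the knockout bulb and cortex libraries. The filter and the estimate of spread were thus shared, and the wild type calls are not fully separate from the knockout data. Of 586 miRNAs tested in that fit, 14.2% were called higher and 16.6% lower in wild type bulb. Of the 81 miRNAs higher in knockout bulb, 66 were also called higher in wild type bulb, which is 81.5% of the knockout list and 83.5% of the 79 called higher in wild type among the 541 miRNAs of the knockout comparison. Of the 78 lower, 71 were called lower in wild type, 91.0% of the knockout list and 78.0% of the 91 called lower in wild type among the 541. By edgeR with Benjamini-Hochberg adjustment, the region by genotype interaction was called for 12 of 586 miRNAs (2.05%). All 12 are arms of the miR-200 family or the miR-183 cluster, and 17 had an unadjusted p under 0.05. The knockout was chosen with it known that its cortex holds little of these miRNAs, so these interactions restate what the choice used and are a description, not independent support. Across the other 529 miRNAs tested in both, the wild type and knockout differences had a Pearson correlation of 0.95, given as a description, since the libraries of each region share their composition.

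For the 12, the genotypes were close in bulb and apart in cortex. Wild type bulb held 221324, 196931 and 213587 CPM of miR-182-5p, within the knockout bulb range, while wild type cortex held 5055, 2712 and 3277, against 302 at most in knockout cortex. The region difference of miR-182-5p was 5.84 in wild type and 10.01 in knockout. For miR-141-3p, wild type cortex held 233, 119 and 150 CPM against 14.0 at most in knockout cortex. Mean wild type cortex levels of the 9 arms with at least 10 knockout cortex counts were 1.59% to 2.30% of the wild type bulb levels. Genotype and the dissection or handling of the cortex libraries cannot be told apart with these labels.

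**Figure D5:**
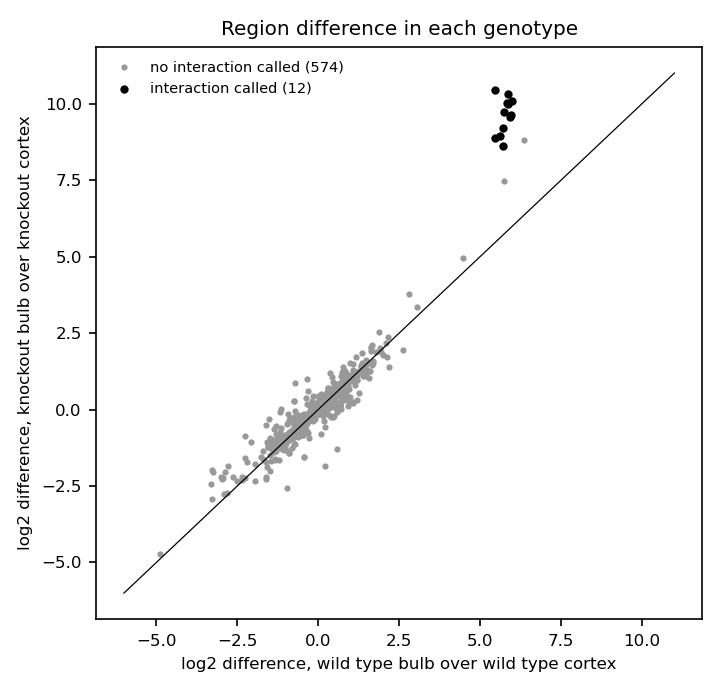
Each point is 1 of 586 miRNAs, with the log2 difference of bulb over cortex in wild type mice on the horizontal axis and in knockout mice on the vertical axis; the line marks equal values. The 12 black points with a called interaction, all of the miR-200 family and miR-183 cluster, lie between 5 and 6 in wild type and above 8 in knockout, and most of the 574 others lie near the line.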

How the data were processed

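The authors deposited a table of whole-number read counts for each of the 23 libraries, with 1915 mature miRNA names in each. Per the submitters' processing notes, the build was mm9. Neither the aligner nor the counter is named, and the treatment of reads with several matches is not given in the sources used here. RefSeq sequences and GRCm38 annotation (GENCODE M21) gave sequences, chromosomes and host genes only; 464 of the 541 tested names matched a sequence, 401 of them with 1 locus, and no coordinates are printed because the builds differ. Counts of 10 sets of near-identical names were equal in all 23 libraries.

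Groups came from the labels. The analysis used edgeR 4.0.16 in R 4.3.3: TMM factors over the 23 libraries, filterByExpr (minimum count 10, minimum total 15), a quasi-likelihood F test (two-sided) on the 6 knockout libraries, and Benjamini-Hochberg adjustment over the 541 miRNAs kept of 1201 with a count. Arm ratios, log2 of 5p over 3p counts with 0.5 added, were tested with limma 3.58.1. The interaction and the wild type region difference came from 1 fit of 12 libraries. DESeq2 1.42.0, limma-voom, other scalings and filters, a replicate block and leaving out each library were alternatives. The fits were tested on simulated data. No 2 libraries of these groups were duplicates (chi-square per degree of freedom at least 68.4).

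The replicate numbers were checked for pairing. Deviations from the group means correlated at 0.297, 0.412 and 0.297 for equal numbers and at -0.264 to -0.073 for unequal ones. Equal numbers thus went together in these counts. Deviations cancel within a group, so the negative values follow in part from the positive ones. The pairing is read from the data, not the labels, and the shallow replicate 3 in both regions moves with it. A shared mouse and shared handling cannot be told apart. The main test did not use the pairing, and the replicate block did.

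The knockout comparison and the 19 miRNA lists were chosen with earlier results of these data known, among them the low levels of bulb miRNAs in knockout cortex. Named miRNAs are the 15 highest and 15 lowest called miRNAs with groups that do not overlap, the miR-200, miR-183 and Cdr1as-linked lists, the 10 most abundant, the called arm ratios, the interaction calls and 2 to 4 abundant members of each other list; others were chosen after their values were seen.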

Additional observations from a re-analysis of the deposited data

Results flagged for a closer look

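The difference between bulb and cortex differed between the genotypes for 12 miRNAs, by edgeR's interaction test with Benjamini-Hochberg adjustment over 586 miRNAs. The knockout difference minus the wild type difference, on the log2 scale, was 4.10 for miR-183-5p, 4.17 for miR-182-5p, 4.11 for miR-96-5p and 3.64 for miR-183-3p. In the miR-200 family it was 3.98 for miR-200a-3p, 3.35 for miR-200b-3p, 3.50 for miR-429-3p, 3.68 for miR-200c-3p and 4.47 for miR-141-3p. The rarer arms stood at 3.44 for miR-200a-5p, 2.90 for miR-200b-5p and 4.99 for miR-141-5p, the last on 1 count in knockout cortex. Both genotypes had the same direction, higher in bulb. The knockout was chosen for the comparison with its low cortex levels of these miRNAs known, so the 12 differences describe what that choice used and support nothing further, and their cause was not tested.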

How the results depend on the processing

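No called miRNA changed sign under any of the alternatives run. For the scalings this could hardly be otherwise, since their shift of the median is under the 2-fold mark. With library size alone 23 miRNAs were higher and 241 lower, against 81 and 78; with a minimum count of 100, which left 339 miRNAs to test, 45 and 49; without the fold requirement 134 and 138. DESeq2 gave 81 and 76, limma-voom 81 and 79, upper quartile scaling 66 and 95, and TMM without the miR-200 family and miR-183 cluster 77 and 79. Leaving out 1 library gave 75 to 83 higher and 61 to 82 lower, the lowest without bulb replicate 2. The replicate block, which pairs equal numbers, gave 83 and 80 with 158 of the 159 calls shared, and changed no call of the 94 named miRNAs. Of these 94, with library size alone 11 lost a call, 20 gained one and 63 did not change.

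The arm ratio calls, 1 higher and 1 lower, became 2 and 5 with a pseudocount of 5 and 0 and 0 with a minimum count of 100, where 78 precursors were tested; leaving out 1 library gave 0 to 1 higher and 0 to 2 lower. The 12 interaction calls were shared by every alternative run; without the filter 13 were higher and 2 lower, where the main analysis had 0, and the replicate block gave 13. Depth limits the cortex values of the miR-200 family and miR-183 cluster, several of which rest on under 10 counts, and the replicate 3 libraries are the shallowest. The fitted fold change of miR-182-3p depends on the prior count.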
